A study of Rattus norvegicus with 8 samples.

Results

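The growth hormone receptor and STAT5 axis was followed here through 9 genes, Ghr, Jak2, Stat5a, Stat5b, Cish, Socs2, Bcl6, Igf1 and Igfals, in rat liver. Its members were all probe sets to which the platform annotation gives 1 of these symbols, which were 13 of the 31042 probe sets that are no array controls. By gene they were 9 of the 14217 for which a probe set has a single symbol. Ghr and Cish had 2 probe sets each, Igf1 had 3, and each other gene had 1. A probe set was kept if at least 2 arrays read it above their own median. This left 16253 probe sets, and all 13 of the axis were among them. Male Sprague-Dawley rats were given GW3965, a synthetic agonist of both liver X receptors (LXRs), or its vehicle by gavage for 3 days. On the last of these days dexamethasone, a synthetic steroid that activates the glucocorticoid receptor (GR), or saline was injected into the muscle. Livers were collected 24 h after the injection. The vehicle group received gavage vehicle and saline, the Dex group gavage vehicle and dexamethasone at 1.5 mg/kg, the GW3965 group GW3965 at 50 mg/kg and saline, and the Dex+GW3965 group both compounds at these doses. Each group had 2 Affymetrix arrays, named replicates a and b. Both arrays of a group carry 1 liver number in the labels, with these letters, while the methods speak of 2 animals, so p-values measure the spread between arrays, which may be technical.

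In liver, growth hormone binds its receptor, which activates the kinase JAK2, and JAK2 phosphorylates the transcription factors STAT5A and STAT5B. Phosphorylated STAT5 enters the nucleus and raises genes of body growth, among them the hormone IGF1 and IGFALS, the protein that holds IGF1 in a long-lived complex in blood. It also raises CISH and SOCS2, which feed back on the receptor and damp the signal, and it lowers BCL6, a repressor of transcription that can bind the same DNA sites. Glucocorticoids are known to restrain growth, and the GR can act together with STAT5 on liver genes.

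The promoter of Cish, which fell with dexamethasone on both its probe sets, is shown because STAT5 binds DNA at TTCNNNGAA. This motif reads the same on both strands and overlaps the sites BCL6 binds. The RefSeq promoter of rat Cish, 250 bases before to 50 after the start site on the plus strand of build GRCr8 at chr8:116850719-116851018, holds 4 matches, here in capitals.

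Cish promoter: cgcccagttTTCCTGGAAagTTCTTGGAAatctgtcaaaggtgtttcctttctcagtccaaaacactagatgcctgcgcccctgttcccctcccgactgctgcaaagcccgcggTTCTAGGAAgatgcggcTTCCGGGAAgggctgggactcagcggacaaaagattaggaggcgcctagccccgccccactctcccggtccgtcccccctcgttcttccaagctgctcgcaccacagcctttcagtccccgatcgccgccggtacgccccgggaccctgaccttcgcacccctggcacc

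Counted with the start site as 0, the matches began at -241, -230, -136 and -119. Of 33469 rat promoters of the same length, 8.87% held the motif at least once and 2 held 4 matches, which was also the highest number found. RefSeq promoters were at hand for 8 of the 9 members, a single window for each, and Cish was the only one of the 8 with a match. The windows of Ghr, Igf1 and Igfals lay inside the annotated span of the gene, away from its outer start. For Ghr the window was at 54432026 to 54432325, in a minus-strand gene that spans 54269066 to 54532595. Other start sites of the members were not searched. The GR half-site AGAACA, read on both strands, was found once each in the windows of Ghr and Igf1 and in 20.7% of all promoters. The full palindromic GR site and the DR4 repeat of the LXRs, read on both strands, were in no member's window and in 0.0149% and 0.00598% of all promoters. A match of letters is no measured binding site, and these arrays did not measure binding.

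Dexamethasone lowered the receptor, both feedback inhibitors, Igf1 and Igfals and raised Bcl6, while the kinase and the STAT5 genes did not pass the test. In Dex against vehicle, 9 of the 13 member probe sets were lower and 1 was higher, where 24.7% of all 16253 tested were lower, 17.2% higher and 41.9% either (adjusted p under 0.05 from limma over all of them, as for every call here). By gene, 5 of 9 fell, 1 rose and 3 did not pass. The median log2 difference of the 13 was -1.04, against -0.01 over all probe sets tested. GW3965 gave fewer and mixed changes, with 4 probe sets higher and 2 lower (5.93% and 14.5% of all, 20.5% together). For all probe sets this was a split of 963 higher and 2362 lower, which became 1208 and 1505 after quantile normalization, while the 4 and 2 stayed as counts. In Dex+GW3965 against vehicle, 6 were lower and 2 higher (21.2% and 15.6% of all, 36.8% together), and the 2 were both Cish. These comparisons share the vehicle arrays.

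**Figure D1:**
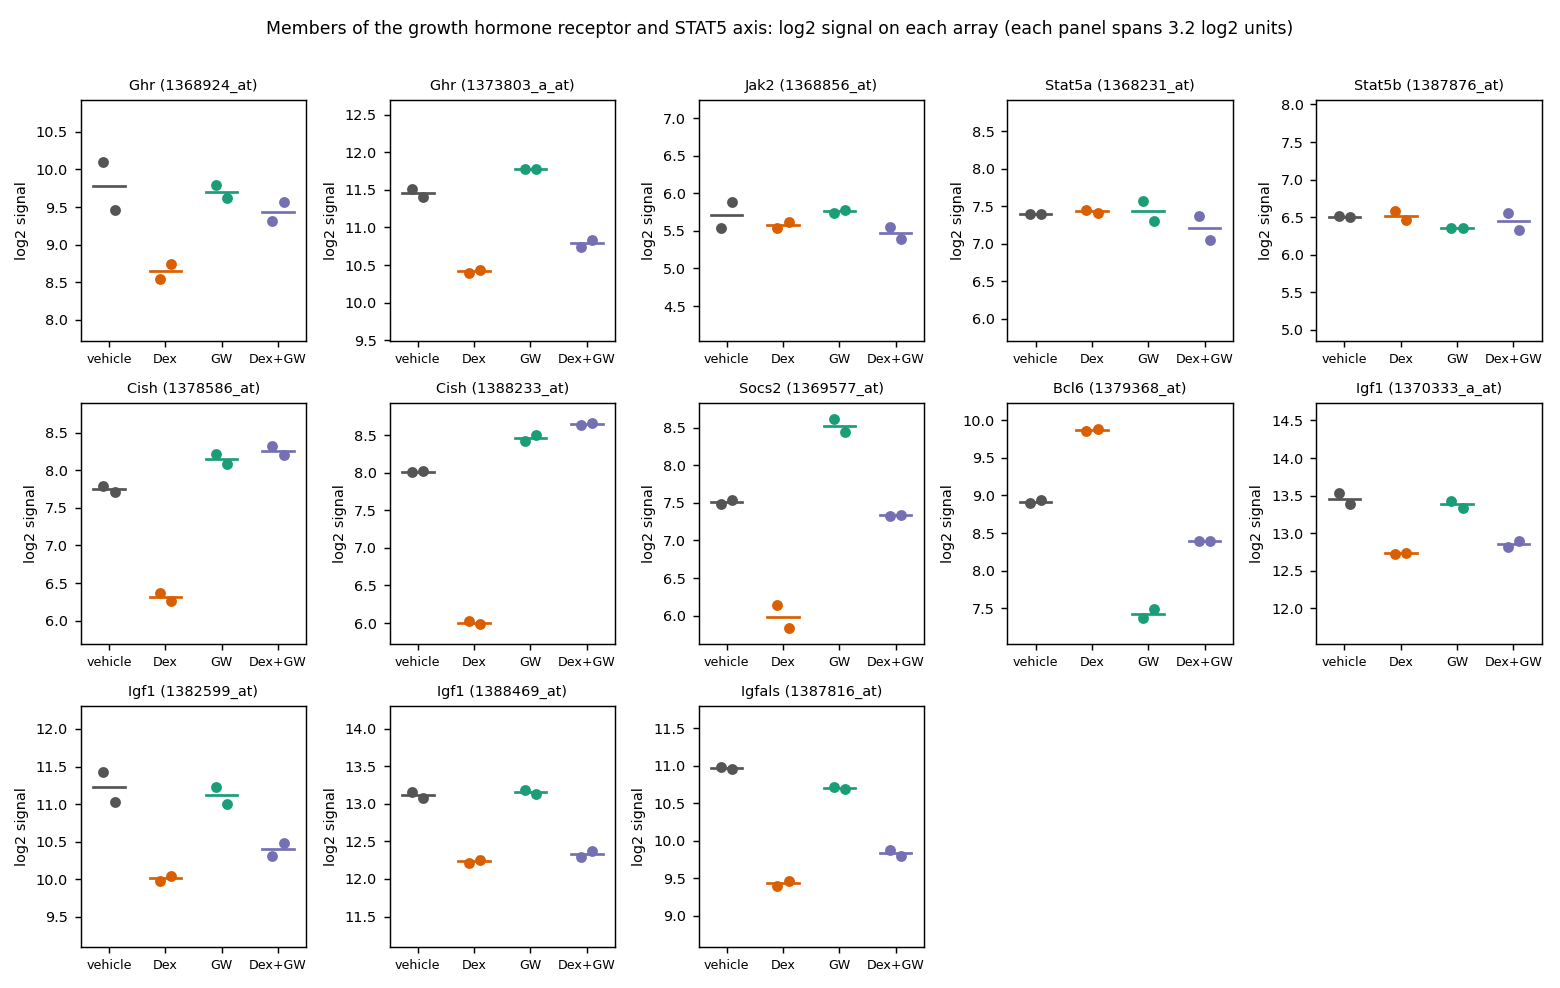
Log2 signal (vertical axis) of the 13 member probe sets on each of the 8 arrays, by group (horizontal axis, GW standing for GW3965), with both arrays as points and the group mean as a bar. Each panel spans the same range, so the fall of Cish, Socs2, Ghr, Igf1 and Igfals in Dex and the opposite course of Bcl6 can be compared, and Jak2, Stat5a and Stat5b stay nearly level.

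Ghr encodes the growth hormone receptor, through which the whole pathway starts. On probe set 1373803_a_at its log2 signal was 11.52 and 11.40 in vehicle, 10.40 and 10.43 in Dex, 11.78 and 11.78 in GW3965, and 10.75 and 10.84 in Dex+GW3965. No 2 groups overlapped, and the order of levels was Dex, Dex+GW3965, vehicle and GW3965. Dexamethasone lowered it by 2.06-fold (log2 difference -1.04, SE 0.04, n = 2 per group, adjusted p = 1.9e-12 from limma). GW3965 alone raised it by 1.25-fold (log2 difference 0.32, SE 0.04, adjusted p = 4e-05 from limma). With both compounds the receptor stood 1.59-fold under vehicle (log2 difference -0.67, adjusted p = 1.2e-09 from limma) and 1.30-fold above Dex (log2 difference 0.38, adjusted p = 5.7e-06 from limma).

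The other Ghr probe set, 1368924_at, read 10.10 and 9.46 in vehicle, 8.54 and 8.74 in Dex, 9.79 and 9.62 in GW3965, and 9.31 and 9.56 in Dex+GW3965. Its vehicle arrays lay further apart than those of any other group on that probe set, and the GW3965 arrays fell between them. The fall in Dex was of like size (log2 difference -1.14, SE 0.13, adjusted p = 1.8e-06 from limma). The rise with GW3965 seen on the first probe set was not found, at a log2 difference of -0.08 with a 95% interval from -0.36 to 0.21. Without vehicle replicate b the same difference was -0.39 (adjusted p = 0.009 from limma), and without vehicle replicate a it was 0.24 and did not pass (adjusted p = 0.1 from limma). Dex+GW3965 against vehicle did not pass on this probe set (log2 difference -0.35, adjusted p = 0.053 from limma, and 0.046 with the replicate letters as a block). It was -0.66 without vehicle replicate b and -0.03 without vehicle replicate a.

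Jak2, the kinase bound to the receptor, gave log2 signals close to background on its only probe set. They were 5.54 and 5.89 in vehicle, 5.54 and 5.62 in Dex, 5.74 and 5.78 in GW3965, and 5.55 and 5.39 in Dex+GW3965. The mean of the array medians, taken as the limit of background, was 5.49, and the Dex+GW3965 mean of 5.47 was under it. The difference of Dex from vehicle was -0.13 with a 95% interval from -0.40 to 0.13, and no comparison passed for Jak2. Without vehicle replicate a, Dex+GW3965 was lower than vehicle (log2 difference -0.42, adjusted p = 0.026 from limma).

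Stat5a and Stat5b encode the pair of transcription factors that carry the signal to the nucleus. Stat5a read 7.40 and 7.39 in vehicle, 7.45 and 7.41 in Dex, 7.57 and 7.30 in GW3965, and 7.36 and 7.05 in Dex+GW3965. Stat5b read 6.52 and 6.50 in vehicle, 6.58 and 6.46 in Dex, 6.36 and 6.35 in GW3965, and 6.55 and 6.33 in Dex+GW3965. Neither gene passed in any comparison. For Dex against vehicle the 95% interval of the log2 difference ran from -0.18 to 0.25 for Stat5a and from -0.20 to 0.22 for Stat5b, so a fall as large as that of Ghr lay outside both. Without Dex+GW3965 replicate a, Stat5a was lower in Dex+GW3965 than in vehicle (log2 difference -0.35, adjusted p = 0.021 from limma), than in Dex (-0.39, adjusted p = 0.02) and than in GW3965 (-0.39, adjusted p = 0.011). The difference between the effects of dexamethasone with and without GW3965 then passed too (-0.43, adjusted p = 0.04 from limma). Without GW3965 replicate b, Stat5a was also lower in Dex+GW3965 than in GW3965 (-0.37, adjusted p = 0.03 from limma). The arrays measured mRNA, and phosphorylation of these proteins was not measured.

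Cish, a suppressor of cytokine signaling that binds activated receptors, fell with dexamethasone on both probe sets and stood above vehicle in both groups given GW3965. On probe set 1388233_at it read 8.01 and 8.02 in vehicle, 6.03 and 5.98 in Dex, 8.42 and 8.50 in GW3965, and 8.64 and 8.67 in Dex+GW3965. All groups were apart, in the order Dex, vehicle, GW3965 and Dex+GW3965. Dexamethasone lowered Cish by 4.02-fold (log2 difference -2.01, SE 0.07, n = 2 per group, adjusted p = 6.8e-14 from limma). GW3965 raised it by 1.36-fold (log2 difference 0.45, adjusted p = 0.0001 from limma). With both compounds it stood 1.56-fold above vehicle (log2 difference 0.64, adjusted p = 5e-07 from limma) and 6.26-fold above Dex (log2 difference 2.65, adjusted p = 1.3e-14 from limma).

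Probe set 1378586_at of Cish gave the same order of group means. Its values were 7.79 and 7.71 in vehicle, 6.37 and 6.26 in Dex, 8.21 and 8.08 in GW3965, and 8.32 and 8.20 in Dex+GW3965. The last pair of groups overlapped. Dexamethasone lowered it by 2.70-fold, and Dex+GW3965 was 3.84-fold above Dex (adjusted p = 6e-11 and 4.7e-12 from limma). Between GW3965 and Dex+GW3965 the difference was 0.11 on this probe set, with a 95% interval from -0.05 to 0.28, and 0.19 on the other (adjusted p = 0.033 from limma). That last call was lost without any 1 of the 4 arrays of these groups, without the filter and after quantile normalization, with adjusted p from 0.056 to 0.23 from limma.

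Socs2, the inhibitor whose loss in mice leads to overgrowth, fell with dexamethasone and rose with GW3965. Its probe set read 7.49 and 7.54 in vehicle, 6.14 and 5.84 in Dex, 8.62 and 8.44 in GW3965, and 7.33 and 7.35 in Dex+GW3965. No groups overlapped. Dexamethasone lowered Socs2 by 2.88-fold (log2 difference -1.53, SE 0.09, n = 2 per group, adjusted p = 4e-10 from limma), and GW3965 raised it by 2.02-fold (log2 difference 1.01, SE 0.09, adjusted p = 4.7e-07 from limma). In Dex+GW3965 it stood 2.55-fold above Dex and 2.28-fold below GW3965 (adjusted p = 9.3e-09 and 1.5e-08 from limma). Against vehicle that group did not pass, at a log2 difference of -0.18 with a 95% interval from -0.38 to 0.02.

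Bcl6, the repressor that STAT5 lowers, moved opposite to Socs2 in both treatments. It read 8.90 and 8.94 in vehicle, 9.86 and 9.88 in Dex, 7.37 and 7.48 in GW3965, and 8.39 and 8.40 in Dex+GW3965. The groups were well apart, with the order GW3965, Dex+GW3965, vehicle and Dex. Dexamethasone raised Bcl6 by 1.94-fold (log2 difference 0.95, SE 0.06, n = 2 per group, adjusted p = 2.2e-10 from limma) and GW3965 lowered it by 2.81-fold (log2 difference -1.49, SE 0.06, adjusted p = 3.9e-12 from limma). In Dex+GW3965 it was 1.44-fold under vehicle (log2 difference -0.52, adjusted p = 7.8e-07 from limma).

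Igf1, the growth factor that liver releases into blood, fell with dexamethasone on all 3 probe sets and did not pass with GW3965 alone on any. Probe set 1370333_a_at read 13.53 and 13.39 in vehicle, 12.72 and 12.74 in Dex, 13.43 and 13.34 in GW3965, and 12.81 and 12.90 in Dex+GW3965. Probe set 1388469_at read 13.16 and 13.08 in vehicle, 12.22 and 12.25 in Dex, 13.18 and 13.13 in GW3965, and 12.30 and 12.38 in Dex+GW3965. The third probe set, 1382599_at, was dimmer and varied more, with 11.43 and 11.03 in vehicle, 9.98 and 10.05 in Dex, 11.22 and 11.01 in GW3965, and 10.32 and 10.49 in Dex+GW3965. On all 3, each array that had received dexamethasone was below each that had not.

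Dexamethasone lowered Igf1 by 1.66-fold, 1.85-fold and 2.32-fold on these probe sets in this order (log2 differences -0.73, -0.88 and -1.21, adjusted p = 3.2e-10, 2.2e-12 and 6.5e-09 from limma, n = 2 arrays per group). With both compounds Igf1 stayed under vehicle by 1.52-fold, 1.72-fold and 1.77-fold (log2 differences -0.61, -0.78 and -0.82, adjusted p = 5.4e-09, 1.7e-11 and 1.3e-06 from limma). Dex+GW3965 lay above Dex by a log2 difference of 0.13, 0.10 and 0.39, which passed on the dimmest probe set alone (adjusted p = 0.054, 0.061 and 0.0052 from limma). That call was lost without the intensity trend in the fit (adjusted p = 0.087 from limma). It was also lost without Dex replicate a, at a log2 difference of 0.35, and without Dex+GW3965 replicate b, at 0.30. On the other 2 probe sets the same difference passed without either vehicle array (0.013 and 0.028) or without Dex+GW3965 replicate a (0.04 and 0.035). GW3965 against vehicle was -0.08, 0.04 and -0.11 in the same order, and without vehicle replicate b it passed on 1370333_a_at and 1382599_at (-0.15 and -0.31, adjusted p = 0.02 and 0.0089 from limma).

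Igfals, which encodes the acid-labile subunit of the IGF1 complex, was lower in every treated group. It read 10.98 and 10.96 in vehicle, 9.40 and 9.47 in Dex, 10.72 and 10.69 in GW3965, and 9.88 and 9.80 in Dex+GW3965. No groups overlapped, and vehicle was highest. Dexamethasone lowered it by 2.89-fold (log2 difference -1.53, SE 0.04, n = 2 per group, adjusted p = 8.8e-15 from limma), GW3965 by 1.20-fold (adjusted p = 0.00032 from limma) and both together by 2.18-fold (adjusted p = 8.2e-13 from limma). Igfals was 1.32-fold higher in Dex+GW3965 than in Dex (log2 difference 0.41, adjusted p = 2e-06 from limma).

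**Figure D2:**
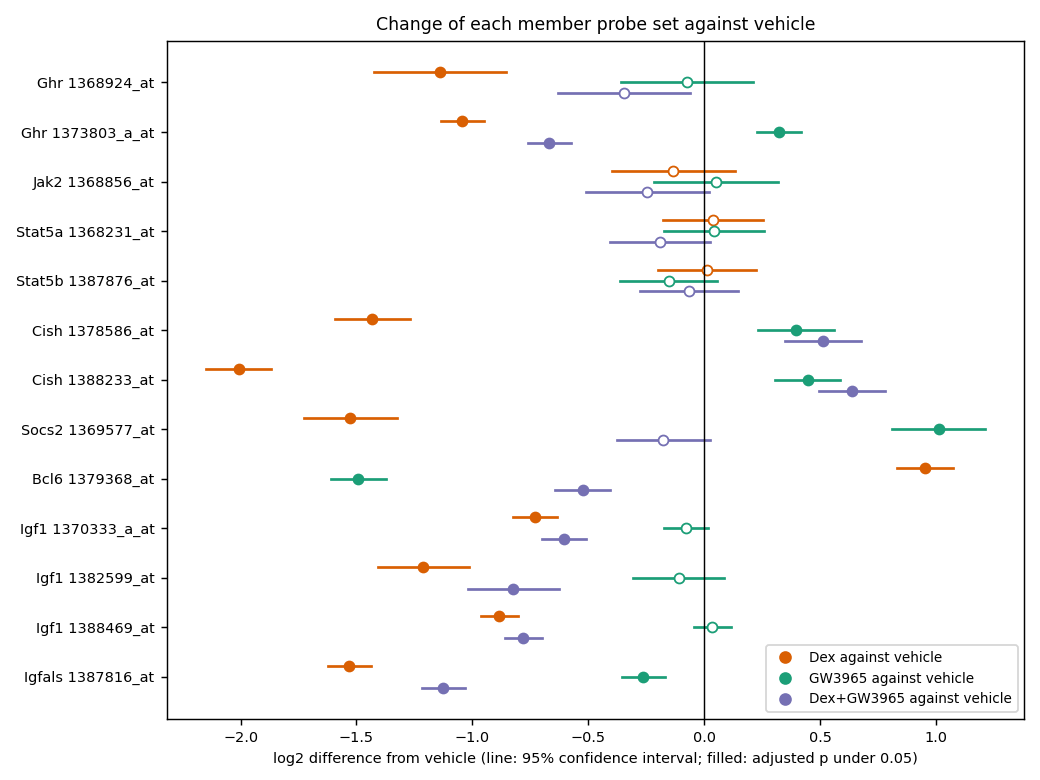
Log2 difference from vehicle (horizontal axis) for each member probe set (vertical axis) in Dex, GW3965 and Dex+GW3965, with 95% confidence intervals as lines and filled points where the adjusted p from limma was under 0.05. Both Cish probe sets lie left of 0 in Dex and right of 0 in the other groups, Igf1 and Igfals lie left of 0 in Dex and in Dex+GW3965, and the points of Jak2, Stat5a and Stat5b are all open.

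The effect of adding GW3965 to dexamethasone was read directly from Dex+GW3965 against Dex. Here 7 of the 13 probe sets were higher and 1 was lower, where 13.4% and 9.38% of all were, 22.8% together. The higher ones were both of Ghr, both of Cish, Socs2, Igfals and 1 of Igf1, and the lower one was Bcl6 (2.79-fold, log2 difference -1.48, adjusted p = 2.8e-12 from limma). The log2 difference was 2.65 and 1.94 for Cish, 1.35 for Socs2, 0.79 and 0.38 for Ghr and 0.41 for Igfals.

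The effect of dexamethasone in rats that also received GW3965 was read from Dex+GW3965 against GW3965, where 6 probe sets were lower and 2 higher (16.8% and 19% of all, 35.8% together). Set beside the effect without GW3965, the members fell into different patterns. Cish fell by 2.01 and 1.43 on the log2 scale without GW3965 and differed by 0.19 and 0.11 with it. The difference of effects was 2.20 (SE 0.09, adjusted p = 2.2e-11 from limma) and 1.55 (SE 0.11, adjusted p = 1.5e-08 from limma). Igfals fell by 1.53 without and by 0.86 with GW3965, a difference of effects of 0.67 (SE 0.06, adjusted p = 4.4e-07 from limma).

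Bcl6 rose by 0.95 without and by 0.97 with GW3965. The difference of effects was 0.01, with a 95% interval from -0.16 to 0.18. Socs2 fell by 1.53 without and by 1.19 with GW3965, a difference of 0.34 that did not pass (95% interval 0.05 to 0.62, adjusted p = 0.082 from limma) but did without Dex replicate a (0.49, adjusted p = 0.012 from limma). Probe sets of 1 gene disagreed for Ghr and Igf1. For Ghr the difference of effects was 0.87 on 1368924_at (adjusted p = 0.0029 from limma, and 0.55 without vehicle replicate a with adjusted p = 0.0046) and 0.05 on 1373803_a_at (95% interval -0.08 to 0.18). For Igf1 it was 0.20, 0.07 and 0.50 on 1370333_a_at, 1388469_at and 1382599_at (adjusted p = 0.027, 0.41 and 0.01 from limma). On 1370333_a_at the call was lost without vehicle replicate a (0.13, adjusted p = 0.1 from limma), either Dex array, GW3965 replicate b or Dex+GW3965 replicate b (adjusted p from 0.07 to 0.16). On 1382599_at it was lost without GW3965 replicate b or Dex+GW3965 replicate b (adjusted p = 0.087 and 0.058 from limma), and without vehicle replicate a the value was 0.30 (adjusted p = 0.039 from limma).

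In all, the difference of effects passed for 6 of the 13, all in the higher direction, where 15.8% of all probe sets passed in that direction and 6.93% in the other, 22.8% together. Over all probe sets the split was 2571 higher and 1127 lower, and 1843 and 1587 after quantile normalization, where 4 of the 13 members passed. The members lost there were the 2 Igf1 probe sets, with adjusted p of 0.068 and 0.061. Without the intensity trend in the fit, 2684 of all probe sets passed, in place of 3698. The 3 members among them were both Cish probe sets and Igfals, and Ghr 1368924_at had an adjusted p of 0.064 from limma.

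**Figure D3:**
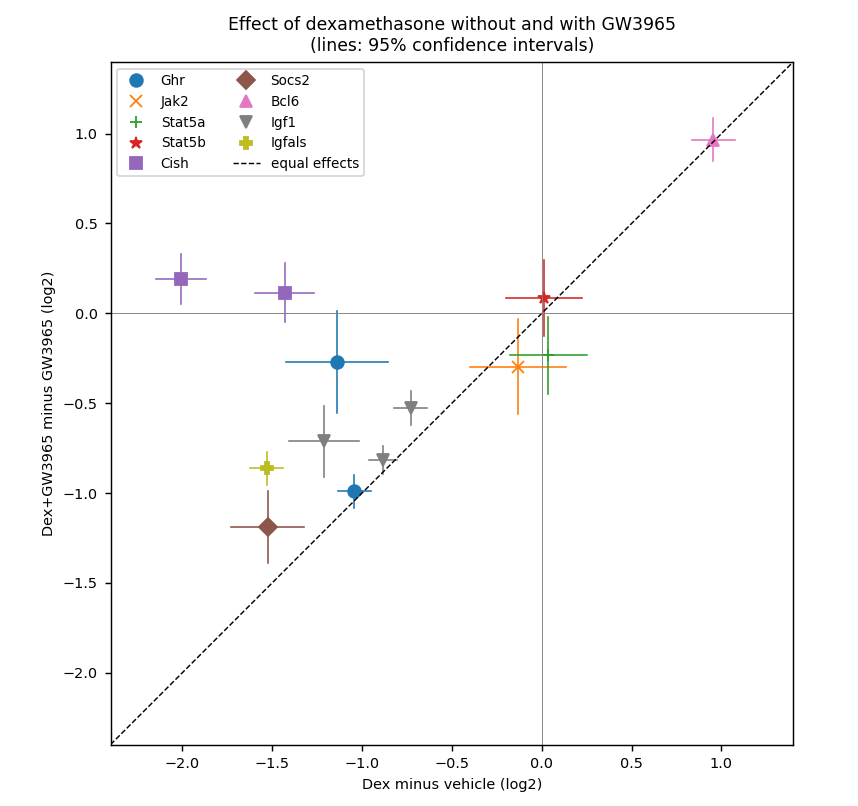
Effect of dexamethasone on each member probe set without GW3965 (horizontal axis, Dex minus vehicle) and with it (vertical axis, Dex+GW3965 minus GW3965), both as log2 differences with 95% confidence intervals. The dashed line marks equal effects, Bcl6 lies on it near 0.95 and 0.97, and the 2 Cish points lie farthest from it, at -2.01 and -1.43 on the horizontal axis and near 0 on the vertical one.

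Livers hold cells other than hepatocytes, and in whole tissue fewer cells of a type and less RNA per cell cannot be told apart. The summed signal of 9 hepatocyte markers such as Alb lay between 17.12 and 17.20 on the log2 scale on all arrays. Against vehicle, 1 of these 9 rose and 4 fell in Dex, 3 fell in GW3965, and 2 rose and 4 fell in Dex+GW3965. The summed signal of 10 stellate cell markers was 12.51 to 12.53 in vehicle, 11.77 to 11.82 in Dex, 12.15 to 12.18 in GW3965 and 11.73 in both Dex+GW3965 arrays, with 8, 8 and 7 of the 10 lower and 1, 0 and 0 higher in the treated groups. That of 8 Kupffer cell markers was 12.08 to 12.11, 11.89 to 11.91, 12.49 and 11.986 to 12.004 in the same order of groups, with 4, 0 and 5 lower and 1, 4 and 1 higher.

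Of 6 sinusoidal endothelial markers 4, 2 and 5 were lower in Dex, GW3965 and Dex+GW3965 and 0, 1 and 0 higher. Of 3 erythrocyte markers 1, 1 and 3 were lower and 0, 2 and 0 higher, and of 3 cholangiocyte markers 1, 2 and 1 were lower and 0, 1 and 2 higher. Of the T and NK cell markers 3 of 10 and of the B cell markers 2 of 7 could be tested, with 1, 0 and 1 and with 1, 1 and 1 lower, and 1, 1 and 1 and 0, 0 and 0 higher. Gzmb was the T and NK cell marker called higher, with means of 4.72, 5.19 and 5.24 in vehicle, Dex and GW3965. These lay under the limit of background (5.49). Over all probe sets, 24.7%, 14.5% and 21.2% were lower and 17.2%, 5.93% and 15.6% higher in the 3 treated groups. The T cell receptor genes Cd3d, Cd3e and Cd3g did not pass the filter. The part of these cells in the levels of Bcl6, Stat5a or Igf1 was not tested.

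Other liver genes on a list of growth hormone and STAT5 targets were read in the same fit, each on its brightest probe set. The list holds genes that respond to growth hormone or differ between male and female rats, and 21 of its 26 names could be tested. In Dex, 13 of the 21 were lower, 3 higher and 5 did not pass, with a median log2 difference of -0.28 against -0.01 over all probe sets, of which 24.7% were lower and 17.2% higher. Car3, a carbonic anhydrase, fell by 2.70 on the log2 scale (adjusted p = 4e-18 from limma), Cyp2c12, a steroid hydroxylase typical of female rats, by 1.92 (adjusted p = 5.6e-13 from limma) and Sult1e1, which sulfates estrogens, by 1.51 (adjusted p = 4e-12 from limma). Nnmt, which methylates nicotinamide, rose by 1.92 (adjusted p = 1.7e-16 from limma). Cyp2c11, the main cytochrome of male rats, fell by 0.09 (adjusted p = 0.028 from limma). Members of the Cyp2c family are alike in sequence, and their probe sets may share transcripts.

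In GW3965, 5 of the 21 were higher and 5 lower, where 5.93% of all probe sets were higher and 14.5% lower. Onecut1, a hepatocyte transcription factor, rose from 7.77 to 10.09 (log2 difference 2.31, adjusted p = 2.4e-13 from limma) and Cyp2c12 from 10.39 to 11.22 (0.83, adjusted p = 3e-07 from limma). Nnmt fell by 0.43 and Egfr, the receptor of epidermal growth factor, by 0.41 (adjusted p = 6.2e-07 and 6.1e-06 from limma). The other Egfr probe sets stood at 0.06 and 0.18 in GW3965 and did not pass (adjusted p = 0.44 and 0.29 from limma). In Dex+GW3965, 8 were higher and 10 lower, beside 15.6% and 21.2% of all probe sets. Egfr stood at -2.39, Car3 at -1.99, Akr1d1, a steroid reductase, at -1.27 and Nnmt at 1.51 (adjusted p = 7.6e-17, 3.6e-16, 2.7e-14 and 6.2e-15 from limma). The fall of Egfr was smaller on its next brightest probe set (-0.43 in Dex and -1.05 in Dex+GW3965) and did not pass on the third (-0.05 and 0.15).

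**Figure D4:**
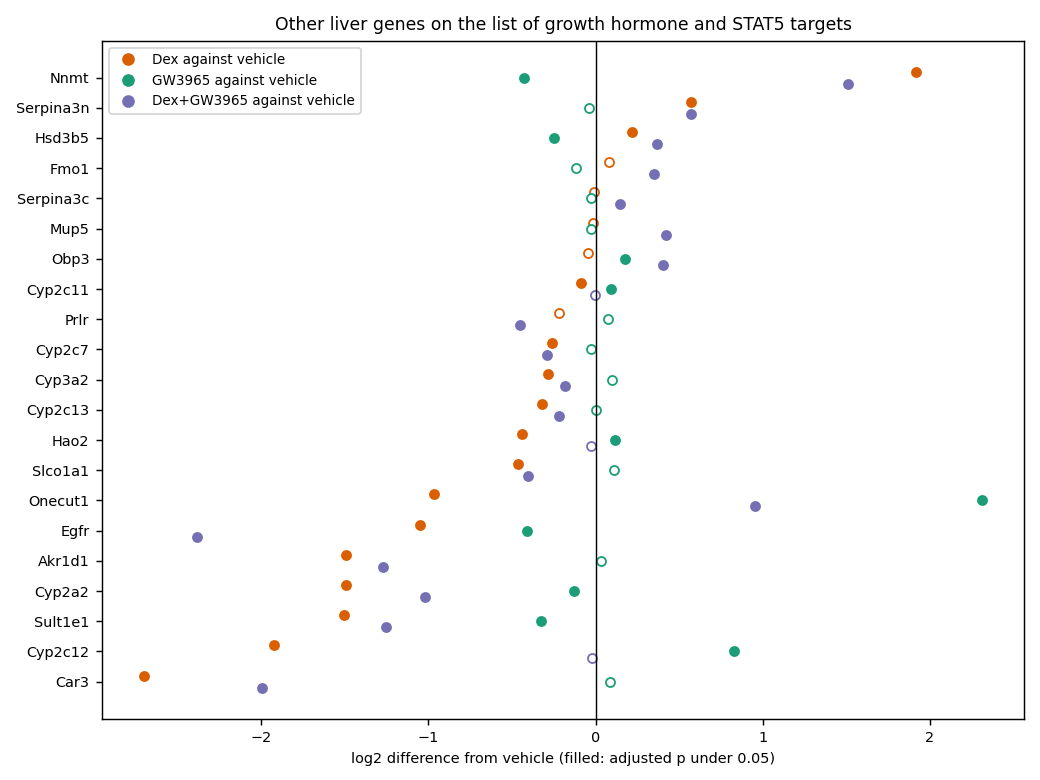
Log2 difference from vehicle (horizontal axis) for the 21 tested genes of the list of growth hormone and STAT5 targets (vertical axis, ordered by the value in Dex), with filled points where the adjusted p from limma was under 0.05. Car3 at -2.70 and Nnmt at 1.92 mark the ends of the order in Dex, and Onecut1 at 2.31 is the point farthest right, in GW3965.

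Partners and brakes of the receptor formed another list. Of 31 names, 23 could be tested, and 8 were lower and 4 higher in Dex, 4 and 3 in GW3965, and 6 and 2 in Dex+GW3965, beside the 41.9%, 20.5% and 36.8% of all probe sets that passed in either direction. In Dex the changes were led by Nr3c1, the gene of the GR itself, at -0.75, Jak1, a related kinase, at -0.62, the suppressor Socs6 at -0.59 and the adaptor Irs2 at -0.53 (adjusted p = 1.9e-08, 2.1e-09, 3.3e-06 and 0.00021 from limma). The second Nr3c1 probe set stood at -0.25 and did not pass (adjusted p = 0.094 from limma). In GW3965, Irs2 fell by 0.54, Pias3, an inhibitor of STAT proteins, by 0.37 and Socs5 by 0.35, and Socs7 rose by 0.34 (adjusted p = 0.00051, 0.015, 0.0078 and 0.036 from limma). Socs5 and Socs7 each had a dimmer probe set that did not pass. In Dex+GW3965, Stat2, which carries interferon signals, rose by 0.63, and Jak1 fell by 0.60, the ubiquitin ligase Cbl by 0.43 and the receptor Sirpa by 0.39 (adjusted p = 4.6e-08, 4.5e-09, 0.004 and 0.00056 from limma). A dimmer Sirpa probe set and 1 of the other 2 of Cbl did not pass.

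Genes that carry or receive IGF1 were read in the same way. Of 12 tested from 13 names, 2 were higher and 2 lower in Dex, 0 and 1 in GW3965, and 3 and 2 in Dex+GW3965, where 41.9%, 20.5% and 36.8% of all probe sets passed in either direction. Igfbp1, a binding protein that limits free IGF1, rose by 3.19 in Dex and by 1.68 in Dex+GW3965 (adjusted p = 1.1e-16 and 1e-12 from limma). Igfbp3, which joins IGF1 and IGFALS in the large complex, fell by 0.37, 0.64 and 0.62 in Dex, GW3965 and Dex+GW3965 (adjusted p = 5.7e-06, 2.4e-08 and 9.1e-09 from limma). Igfbp7 fell by 0.40 in Dex and in Dex+GW3965 (adjusted p = 1.8e-07 and 2.1e-07 from limma). Igfbp6 rose by 0.49 and 0.65 (adjusted p = 0.00042 and 2.9e-05 from limma), and its dimmer probe set did not pass in Dex, at 0.08. Igf1r, the receptor of IGF1, gave means near background in all groups, from 5.49 to 5.67.

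As a description, genes were ranked by Pearson correlation with the brightest probe set of a member over the 8 arrays, among 9820 other genes. These values rest on 4 groups of 2 arrays and so mostly on the 4 group means. For Cish the 5 nearest were Anks4b, Hhex, a homeobox transcription factor, Zfp467, Rtn4 of the endoplasmic reticulum and Nfil3, a transcription factor, with r from 0.99 to 1.00. Hhex read 10.94, 9.74, 11.37 and 11.49 as means of vehicle, Dex, GW3965 and Dex+GW3965, the same order as Cish. For Socs2 they were Crym, Gde1, Cxcl9, a chemokine, Gsap and Pnp, a purine enzyme, at 0.99. For Igf1 they were Dipk2a, Sult1e1, Pdia6, Gsta1, a glutathione transferase, and Tm4sf4, at 0.99. For Bcl6 they were Gli4, Tubb4b, a tubulin, Tomm5, Tspyl4 and Sall1, at 0.98 to 0.99.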

How the data were processed

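Total RNA of rat liver was read on 8 Affymetrix arrays, 2 per group. Per the methods, the authors re-mapped probes to UniGene and took perfect-match signals with MAS background subtraction, and the submitters' processing notes name MAS5. The authors deposited log2 signals, 1 per probe set and array. The log2 scale was read from the values (2.50 to 14.95), and the step that made the array medians nearly equal (5.48 to 5.52) is not given in the sources used here. The number of arrays limits the precision, and detection calls were not used here.

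Of 31099 probe sets, 57 controls were removed and 16253 kept. Of the 31042 others, 20826 had 1 symbol, 436 several and 9780 none. Of those with 1 symbol, 20758 were matched by gene identifier to a current symbol, which may be the same one. Group means were fitted to the 8 arrays in R 4.3.3 by limma 3.58.1 (functions lmFit and eBayes, with an intensity trend, 4 residual degrees of freedom and a prior of 12.7), with Benjamini-Hochberg adjustment over the 16253. The fit was tested on simulated data. Alternatives were no filter, quantile normalization, no trend, each array left out, the letters as a block, the methods' t-test and, for lists, the mean of a gene's probe sets. The members, lists and tests were chosen with earlier results of these data known. Besides the members, named genes are the 4 largest changed of each pathway list per comparison with vehicle and the 5 nearest by correlation. Cyp2c11, Igf1r, Alb, Gzmb, Cd3d, Cd3e and Cd3g were named outside this rule.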

Additional observations from a re-analysis of the deposited data

Results flagged for a closer look

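The results here are those for which the effect of dexamethasone differed between rats with and without GW3965, by limma's test of the difference of effects (adjusted p under 0.05). Among the members these differences were 2.20 and 1.55 on the log2 scale for Cish (1388233_at and 1378586_at), 0.87 for Ghr (1368924_at), 0.67 for Igfals, and 0.50 and 0.20 for Igf1 (1382599_at and 1370333_a_at). In each case the fall with dexamethasone was smaller, or absent, when GW3965 was given too. Ghr 1373803_a_at and Igf1 1388469_at stood at 0.05 and 0.07 and did not pass (adjusted p = 0.6 and 0.41 from limma). The calls of Ghr and Igf1 were lost without the intensity trend (adjusted p = 0.064, 0.11 and 0.21 from limma, in the order given above). Among the named genes of the growth hormone target list the differences were 1.07 for Cyp2c12, 0.62 for Car3, 0.58 for Sult1e1, 0.19 for Akr1d1, -0.39 for Onecut1 and -0.93 for Egfr. Among partners and brakes of the receptor they were 1.06 for Irs2, 0.47 for Pias3, 0.40 for Socs6, 0.31 for Nr3c1, 0.22 for Jak1 and -0.45 for Socs7. Among the IGF genes they were 0.39 for Igfbp3 and -1.62 for Igfbp1. Values for list genes rest on the brightest probe set of each. The dimmer Nr3c1 probe set stood at -0.25, 0.37 and -0.17 in Dex, GW3965 and Dex+GW3965 against vehicle. By these values its fall with dexamethasone was no smaller with GW3965, but Dex and Dex+GW3965 did not pass against vehicle (adjusted p = 0.094 and 0.28 from limma). The difference of effects was not read on this probe set. In the order Dex, GW3965 and Dex+GW3965, the dimmer Socs7 probe set stood at -0.09, 0.10 and 0.04 and the third of Egfr at -0.05, 0.18 and 0.15. On these, Dex did not pass (adjusted p = 0.52 and 0.73 from limma), so no effect of dexamethasone was called that GW3965 could change. The next brightest Egfr probe set stood at -0.43, 0.06 and -1.05. The dimmer Akr1d1 probe set stood at -2.05, 0.08 and -0.81. Groups of 2 arrays allow no test of single outlying arrays.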

How the results depend on the processing

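Of 936 values of member probe sets under alternatives, 892 kept their side of the threshold, 21 lost and 23 gained a call, and no called value changed sign. With the letters a and b as a replicate block, the called member probe sets were 9 in place of 8 in Dex+GW3965 against vehicle, through Ghr 1368924_at. Over all probe sets the calls there were 5800 in place of 5980. The block changed no other member call. Deviations of same-lettered arrays correlated between -0.232 and 0.0831 across groups, so the letters were not taken as pairs.

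Leaving out 1 array, member probe sets called numbered 10 in every case for Dex (10 with all arrays), 6 to 9 for GW3965 (6), 8 to 9 for Dex+GW3965 (8), 7 to 11 for Dex+GW3965 against Dex (8), 7 to 10 against GW3965 (8) and 4 to 7 for the difference of effects (6). The 9 for GW3965 came without vehicle replicate b, and the 4 without GW3965 replicate b and also without Dex+GW3965 replicate b. Over all probe sets the ranges were 5451 to 6761, 1804 to 3243, 4799 to 5889, 2376 to 4020, 4262 to 6085 and 2587 to 3683, against 6806, 3325, 5980, 3698, 5825 and 3698. The 1804 came without GW3965 replicate b and the 2376 without Dex+GW3965 replicate b.

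The methods' t-test at the methods' threshold called 4335, 2818, 3789, 2732 and 3741 probe sets in the first 5 comparisons, 8, 4, 7, 4 and 5 of them members. After Benjamini-Hochberg adjustment it called 31, 19, 28, 22 and 25, and 0 members in each. This test has 1 degree of freedom per probe set, where limma shares the spread between probe sets. The test was run on ratios of each array of the first group to the mean of the second, a choice the methods do not spell out. The methods also pick candidate genes by a cut-off of the z distribution, which was not applied. These counts are therefore not those of the authors' full procedure. Without the intensity trend, 3 members were called for the difference of effects, among 2684 of all probe sets in place of 3698.

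For list genes some counts moved, given here with those of the main fit in brackets as higher and lower. Calls over all probe sets fell too without the trend. They were 2222 in GW3965 (3325 in the main fit) and 6344 in Dex (6806). In Dex+GW3965 they were 2711 against Dex (3698) and 5152 against GW3965 (5825), and for the difference of effects 2684 (3698). Without the trend, the fit for GW3965 called 5 growth hormone targets (5 and 5) and 4 partners and brakes (3 and 4). It called 1 hepatocyte (0 and 3), 1 endothelial (1 and 2) and 1 cholangiocyte marker (1 and 2). In Dex it called 3 hepatocyte markers (1 and 4). In Dex+GW3965 against Dex it called 1 hepatocyte (1 and 1) and 1 Kupffer cell marker (3 and 1). It also called 1 endothelial (0 and 4) and 1 cholangiocyte marker (2 and 0) there. Against GW3965 it called 3 hepatocyte markers (3 and 2) and 1 T and NK cell marker (1 and 1). For the difference of effects it called 8 targets (11 and 2) and 4 partners (6 and 2). It called 0 hepatocyte markers (3 and 0) and 1 endothelial marker (0 and 2) there. With probe sets averaged, counts were 0 hepatocyte markers in Dex+GW3965 against Dex and 1 T and NK cell marker against GW3965. In Dex the averaged fit called 2 cholangiocyte markers (0 and 1). Without the filter, counts in Dex+GW3965 were 1 T and NK cell marker against GW3965 and 1 cholangiocyte marker against Dex. With quantile normalization they were 2 Kupffer cell markers against Dex. The cause was not tested. Jak2 and Igf1r lay near background, so small changes in them could not have been seen.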
